A study of Mus musculus with 6 samples.

Results

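Small nucleolar RNAs (snoRNAs) were read as the probe sets whose single gene symbol starts with Snord, which names the box C/D class, or Snora, which names the box H/ACA class. The brightest probe set, by its mean over the 6 arrays, stood for a gene. This gave 73 snoRNAs, 47 of box C/D and 26 of box H/ACA, of 22180 genes with a probe set of their own. Their RefSeq gene IDs all matched, and 72 carry the biotype snoRNA there, while Snord73b is listed as a small nuclear RNA. RefSeq holds 133 Snord and Snora genes, so the members cover only a part of them. The members were chosen by their symbols, but the group was selected on its log2 differences between these 6 arrays, so the class values are descriptions and carry no test.

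The RNA came from mouse embryonic stem cells into which a lentivirus had brought an shRNA, a short hairpin RNA that targets Chd4 or Mbd3 or serves as control. Chd4 and Mbd3 encode subunits of NuRD, a chromatin complex that slides nucleosomes and deacetylates histones. Each of the 3 lines was sampled at day 4 of neural differentiation in aggregates and at day 0, as stem cells in serum medium with leukemia inhibitory factor (LIF). The groups, each of 1 Mouse Gene 2.0 ST array, were thus the Chd4 knockdown at day 4 and day 0, the Mbd3 knockdown at day 4 and day 0, and the control at day 4 and day 0. All carry a lentiviral shRNA, and the labels do not say whether a line was a pool of infected cells or 1 clone.

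SnoRNAs are short RNAs of the nucleolus that pair with ribosomal RNA (rRNA) precursors. Box C/D RNAs bind fibrillarin, Nop56, Nop58 and Snu13 and mostly guide methylation of ribose, while box H/ACA RNAs bind dyskerin, Gar1, Nhp2 and Nop10 and mostly guide the change of uridine to pseudouridine. A few act in the cleavage of the rRNA precursor instead. In mammals most lie in introns of protein-coding or noncoding host genes and are trimmed out of the spliced intron, so that 1 transcription unit can yield several snoRNAs. In RefSeq the box C/D members had a median length of 68 bases (48 to 221) and the box H/ACA members of 118.5 bases (56 to 205).

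The values are normalised intensities on a linear scale, and differences are of log2 intensities between 2 arrays. Genes entered a comparison if their brighter array was at or above its own median of all probe sets. Past 2-fold means that log2 intensities differed by at least 1. Each group holds 1 array, so replicate spread is unknown for all differences and precision is limited by the number of arrays. The array medians ran from 39.6 to 41.4. The Chd4 intensity was 727 in the Chd4 knockdown at day 4, or 71.3% of control, and 290 at day 0, or 29.8% of control. The Mbd3 intensity was 138 in the Mbd3 knockdown at day 4, or 75.5% of control, and 92.8 at day 0, or 43.0% of control.

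On the Chd4-knockdown array at day 4 the medians of both snoRNA classes were low. Relative to each member's own mean log2 intensity over the 6 arrays, the box C/D median there was -0.39 and the box H/ACA median -0.25, over 45 and 25 members whose brightest array reached the highest array median. The same line at day 0 had box C/D and box H/ACA medians of 0.24 and 0.04. The Mbd3 knockdown had -0.15 and 0.03 at day 4, and 0.13 and 0.12 at day 0. Control cells had 0.12 and 0.10 at day 4, and 0.11 and -0.03 at day 0. The day-4 medians of the Chd4 knockdown were thus the lowest of the 6 in each class, and its day-0 median the highest of the 6 for box C/D.

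**Figure D1:**
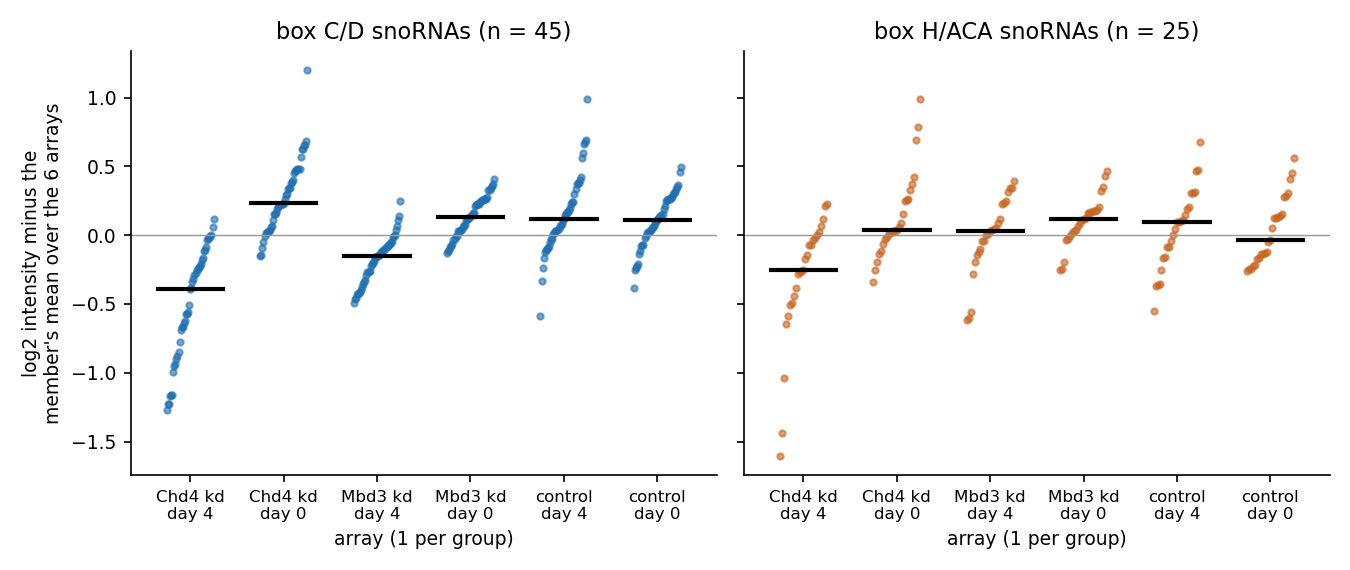
Log2 intensity of each snoRNA minus its own mean over the 6 arrays (vertical axis), for 45 box C/D members (left) and 25 box H/ACA members (right), by array along the horizontal axis with 1 array per group; points are members and bars are medians. The Chd4 knockdown at day 4 has the lowest median in both classes, -0.39 and -0.25.

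The Chd4 knockdown at day 4 was the lowest of the 6 arrays for 31 of 45 box C/D members and 14 of 25 box H/ACA members, against 13.7% of all 14264 genes that reached the floor. It was the highest array for none of either class, against 11.4% of all genes. The Chd4 knockdown at day 0 was the highest array for 20 box C/D and 5 box H/ACA members, against 16.5% of all genes. The Mbd3 knockdown at day 4 was the highest array for no box C/D and 6 box H/ACA members, against 7.77% of all genes. Control at day 4 was the lowest for 3 box C/D and 6 box H/ACA members, against 29% of all genes, and the highest for 7 and 4, against 32.9%. For 30 of 45 box C/D members both day-4 knockdown arrays lay below all 4 other arrays, and the same held for 6 of 25 box H/ACA members, against 9.78% of all genes. Both lay above the other 4 arrays for no box C/D member and for 2 box H/ACA members, Snora44 and Snora47, against 5.71% of all genes.

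Chd4 knockdown was first set against control at day 4. The box C/D median log2 difference was -0.57 over 44 members compared, the box H/ACA median -0.24 over 25, and the median of all 13734 genes compared -0.04. Of the box C/D members, 38 of 44 were lower by any amount, and of the box H/ACA members 16 of 25, where 53.9% of all genes were lower. At least 2-fold lower were 13 box C/D and 4 box H/ACA members, where 6.65% of all genes were. No snoRNA was 2-fold higher, where 5.07% of all genes were. The middle 50% of the box C/D members lay between -1.15 and -0.16, and of the box H/ACA members between -0.54 and 0.11. Probe sets with several symbols, which are no members and are described at the end, had medians nearer that of all genes, -0.09 for box C/D and -0.08 for box H/ACA.

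Among the box C/D RNAs that act in rRNA processing, Snord13, Snord22 and Snord118 were measured. Snord13 is transcribed from a promoter of its own and takes part in acetylation of the small-subunit rRNA. Its intensity was 116 at day 4 and 624 at day 0 with Chd4 shRNA, 214 and 260 with Mbd3 shRNA, and 430 and 232 with control shRNA. The Chd4 line thus held both its lowest and its highest array, and the log2 difference from control was -1.89 at day 4. Snord22, which is needed for maturation of the small-subunit rRNA and lies in the noncoding gene Snhg1, had 338 at day 4 and 1222 at day 0 with Chd4 shRNA, 588 and 917 with Mbd3 shRNA, and 1277 and 855 with control shRNA. Its 2 day-4 knockdown arrays were the lowest of the 6, and the Chd4 difference from control at day 4 was -1.92. Snord118, which also has its own promoter and acts in maturation of the large-subunit rRNA, was dim: 39.7 at day 4 and 65.8 at day 0 with Chd4 shRNA, 48.2 and 53.1 with Mbd3 shRNA, and 54.7 and 52.7 with control shRNA. Its day-4 value in the Chd4 knockdown lay under the highest array median of 41.4, so the difference from control is given against that floor, as at least 0.40 lower on the log2 scale.

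The box C/D RNAs that mostly guide methylation included others as low. Snord1b, in the span of the noncoding gene Snhg16, had intensities of 162 at day 4 and 603 at day 0 with Chd4 shRNA, 291 and 491 with Mbd3 shRNA, and 518 and 494 with control shRNA. Here too the lowest array was the Chd4 knockdown at day 4 and the next lowest the Mbd3 knockdown at day 4, while the other 4 arrays lay between 491 and 603. The log2 difference of the Chd4 knockdown from control at day 4 was -1.67 for Snord1b, -1.84 for Snord58b and -1.58 for Snord111. Snord47, in the span of the noncoding gene Gas5, had a difference of -1.55, and Snord35a, inside the ribosomal protein gene Rpl13a, one of -1.08. The other box C/D members past 2-fold were Snord61 (-1.57), Snord99 (-1.50), Snord49a (-1.32), Snord73b (-1.32), Snord72 (-1.23) and Snord110 (-1.12); Snord49a and Snord110 are named here after their values were seen. At the other end, Snord53, inside Wdr43, had a difference of 0.55, with intensities of 238 at day 4 and 250 at day 0 with Chd4 shRNA, 256 and 293 with Mbd3 shRNA, and 162 and 295 with control shRNA. For Snord53 the control at day 4 was the lowest array and the other 5 lay between 238 and 295.

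The box H/ACA members ran from -2.28 to 0.62 in the same comparison. Snora15, inside the chaperonin gene Cct6a, had intensities of 62.3 at day 4 and 325 at day 0 with Chd4 shRNA, 124 and 261 with Mbd3 shRNA, and 303 and 229 with control shRNA, and its difference of -2.28 was the largest of all 69 snoRNAs compared in the Chd4 knockdown against control at day 4. Snora16a, inside Snhg12, had 125 at day 4 and 546 at day 0 with Chd4 shRNA, 220 and 422 with Mbd3 shRNA, and 468 and 497 with control shRNA, a difference of -1.91. For both genes the 2 lowest arrays were the day-4 knockdowns, in the order Chd4, then Mbd3. Snora34 differed by -1.34 and Snora75 by -1.11. The remaining 21 members lay between -0.90 (Snora68) and 0.62 (Snora78). The highest were Snora78, Snora23 (0.48) and Snora41 (0.35). Snora73a and Snora73b, a pair in Snhg3 of which the human forms are known in rRNA precursor processing, had differences of 0.11 and -0.28.

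**Figure D2:**
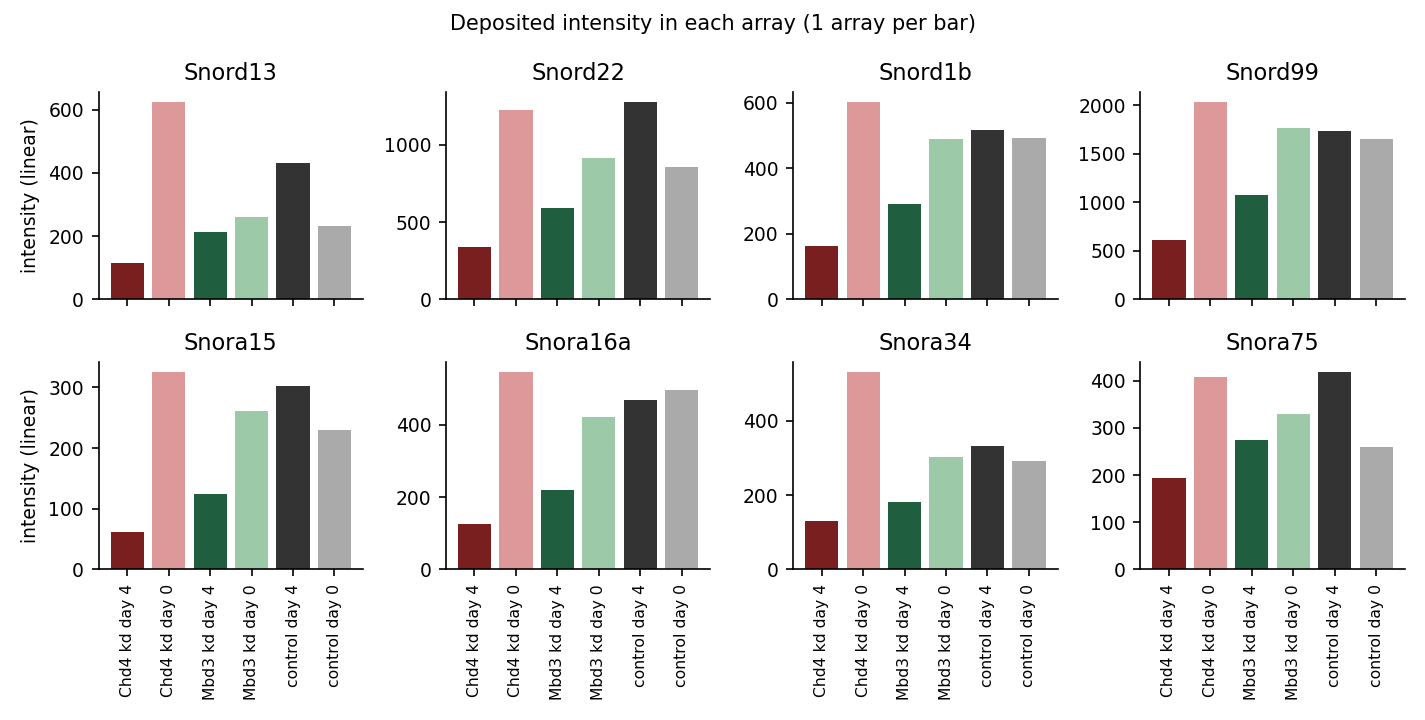
Deposited linear intensity (vertical axes from 0, each panel with its own scale) of 4 box C/D members (top) and 4 box H/ACA members (bottom) in each of the 6 arrays, 1 bar per array and no error since each group holds 1 array. The Chd4 knockdown at day 4 is the lowest bar in all 8 panels. The panels show members picked from those low on that array, so this follows from their choice. Among all members whose brightest array reached the highest array median, that array was the lowest for 31 of 45 box C/D and 14 of 25 box H/ACA members.

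The Mbd3 knockdown at day 4, set against the same control array, had a box C/D median of -0.29 over 44 members and a box H/ACA median of 0.08 over 25, where all genes had -0.06. Of the box C/D members 38 of 44 were lower by any amount and of the box H/ACA members 11 of 25, where 55.9% of all genes were lower. At least 2-fold lower were 3 box C/D members, Snord61 (-1.36), Snord22 (-1.12) and Snord13 (-1.01), and 2 box H/ACA members, Snora15 (-1.28) and Snora16a (-1.09), where 4.9% of all genes were. These counts, 6.82% and 8% of the members compared, are near the background. Snord58b, at 201 in the Mbd3 knockdown and 401 in control, lay just short of 2-fold. No snoRNA was 2-fold higher, where 3.44% of all genes were. Snora78 (0.80), Snora23 (0.70) and Snord53 (0.65) were the highest. The box C/D median lay under the box H/ACA median by 0.37 here and by 0.33 in the Chd4 knockdown at day 4.

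At day 0 the picture was another. For the Chd4 knockdown, the box C/D median was 0.20 over 44 members, the box H/ACA median 0.03 over 24, and the median of all genes -0.01. Of the snoRNAs, 32 of 44 box C/D and 12 of 24 box H/ACA members were higher by any amount, where 48.7% of all genes were. Snord13 was the only snoRNA past 2-fold, at 1.43, where 0.692% of all genes were 2-fold higher, and no snoRNA was 2-fold lower, where 0.565% were. Next highest were Snora34 (0.87), Snord70 (0.69), Snord58b (0.66) and Snora75 (0.65), and lowest were Snora61 (-0.46) and Snora68 (-0.39). The Mbd3 knockdown at day 0 had medians of 0.06 for box C/D, 0.04 for box H/ACA and -0.0023 for all genes. Higher by any amount were 26 of 44 box C/D and 16 of 25 box H/ACA members, where 49.7% of all genes were. No snoRNA was 2-fold higher or lower there, where 0.366% and 0.314% of all genes were. Its ends were Snord70 (0.71) and Snora62 (0.70), against Snord42b (-0.45).

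Across differentiation, control cells kept snoRNA medians near 0: at day 4 against day 0 the box C/D median was -0.03 over 44 members, the box H/ACA median 0.05 over 25, and that of all genes 0.0027. Higher by any amount were 21 of 44 box C/D and 13 of 25 box H/ACA members, where 50.2% of all genes were. Of the snoRNAs only Snord61 was 2-fold higher, at 1.01, where 8.13% of all genes were, and none was 2-fold lower, where 4.7% were. The day-4 array of the Chd4 knockdown lay under its day-0 array, with a box C/D median of -0.72 over 44 members and a box H/ACA median of -0.34 over 24, where all genes had -0.01. Lower by any amount were 40 of 44 box C/D and 19 of 24 box H/ACA members, where 51.5% of all genes were. At least 2-fold lower were 17 box C/D and 4 box H/ACA members, where 1.16% of all genes were, and none was 2-fold higher, where 1.7% were. The lowest were Snord13 (-2.43), Snora15 (-2.38), Snora16a (-2.13), Snora34 (-2.02) and Snord1b (-1.89), and the highest Snora44 (0.57) and Snora47 (0.40). In the Mbd3 knockdown the box C/D median at day 4 against day 0 was -0.31, the box H/ACA median -0.06 and that of all genes -0.03. There 41 of 44 box C/D and 15 of 25 box H/ACA members were lower, where 54.3% of all genes were. Snora15 alone was 2-fold lower, at -1.07, where 1.11% of all genes were, and no snoRNA was 2-fold higher, where 1.6% were.

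The comparisons are not independent. The Chd4 and Mbd3 comparisons of a day share the control array of that day, and the Chd4 comparison at day 4 and the comparison of days in the Chd4 knockdown share the single Chd4 array at day 4. A fault of that array would enter both, and cannot be told apart from an effect of the knockdown at day 4.

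**Figure D3:**
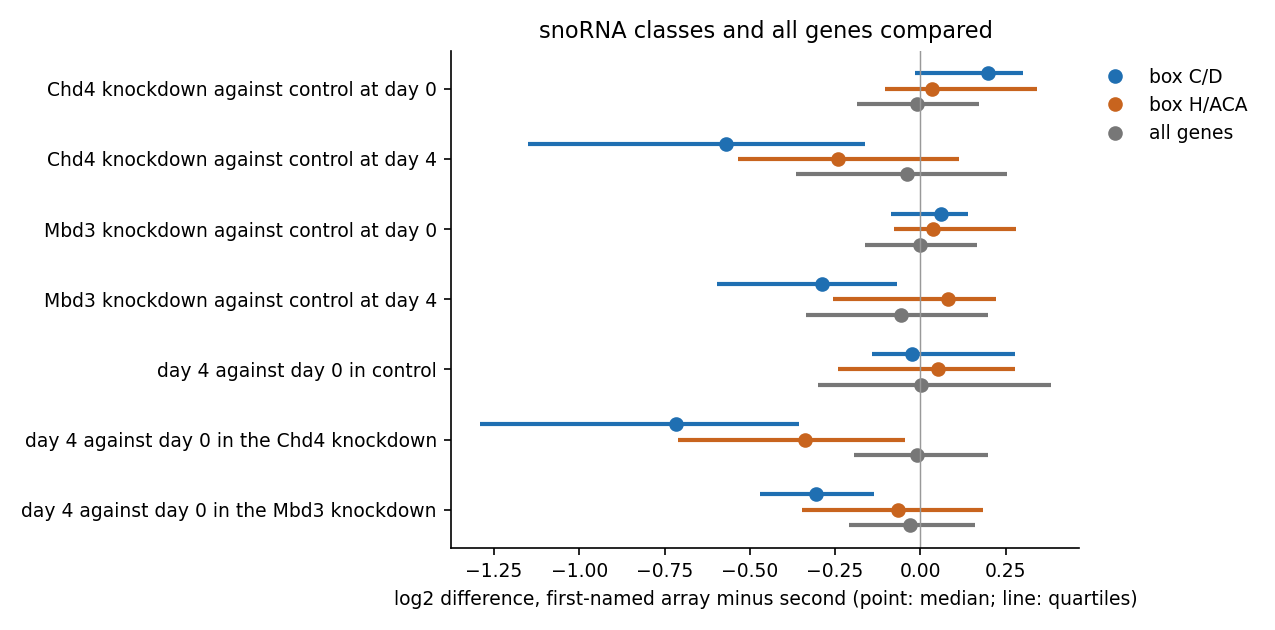
Median log2 difference (points) and quartiles (lines) of box C/D snoRNAs, box H/ACA snoRNAs and all genes compared, for 7 comparisons between 2 arrays; the horizontal axis is the first-named array minus the second. The box C/D median is -0.57 and -0.72 in the 2 comparisons that use the Chd4 knockdown at day 4.

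The host genes were set beside the snoRNAs they hold. By RefSeq spans, 64 members lay inside 1 gene (49 in a protein-coding and 15 in a long noncoding gene), 6 inside 2 genes and 3, Snord13, Snord118 and Snord89, inside none. The tables used here give no strand for the snoRNAs, so a holding gene on the opposite strand could not be left out. For 55 members the single holding gene had a probe set of its own, which gave 41 host genes. In the Chd4 knockdown against control at day 4, 53 such pairs with 39 hosts could be compared: the host median was 0.05 and the snoRNA median -0.33. Of these snoRNAs 13 were at least 2-fold lower, and of the hosts 1 was, against the 6.65% of all genes given above. The snoRNA difference lay under that of its host in 43 of 53 pairs. Some hosts were dim. Rpl17, which holds Snord58b, lay between 46.1 and 80.9 on the arrays, and Rpl39 between 48.7 and 64.3, near the highest array median of 41.4. Rpl17 also had the largest upward host difference, 0.81. How well such probe sets read the host RNA was not tested. Across pairs, the differences of snoRNA and host had r = 0.03 and rho = -0.02, a description over 53 pairs that share 2 arrays and in which some hosts recur. In the Chd4 knockdown at day 4 against day 0, over 52 pairs, the host median was -0.01 with no host 2-fold lower. The snoRNA median was -0.52 with 16 at least 2-fold lower. Of all genes 1.16% were at least 2-fold lower there, so the lack of such a host is near the background.

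The host that was itself 2-fold lower was Rbmx, an RNA-binding protein gene on the X chromosome that holds Snord61. Rbmx had intensities of 178 at day 4 and 89.7 at day 0 with Chd4 shRNA, 180 and 131 with Mbd3 shRNA, and 497 and 129 with control shRNA. Snord61 had 136 at day 4 and 196 at day 0 with Chd4 shRNA, 157 and 207 with Mbd3 shRNA, and 403 and 200 with control shRNA. For both genes the control at day 4 was the highest array. In the Chd4 knockdown against control at day 4, members held by 1 long noncoding gene had a median of -0.34. Of these, 5 of 15 were at least 2-fold lower. Members held by 1 protein-coding gene had a median of -0.45, with 10 of 46 at least 2-fold lower. Of all genes compared, 6.65% were at least 2-fold lower.

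SnoRNAs of the same host did not all stand alike. Snhg12, a noncoding gene known mainly as a snoRNA host, holds 4 members. In the Chd4 knockdown against control at day 4, Snora16a differed by -1.91 and Snord99 by -1.50, while Snora61 differed by -0.34 and Snora44 by 0.04. Snhg12 itself had intensities of 176 at day 4 and 132 at day 0 with Chd4 shRNA, 168 and 137 with Mbd3 shRNA, and 126 and 233 with control shRNA, a difference of 0.48 at day 4. Snord99 had 611 at day 4 and 2033 at day 0 with Chd4 shRNA, 1075 and 1760 with Mbd3 shRNA, and 1732 and 1652 with control shRNA. Snora44 had 205 at day 4 and 138 at day 0 with Chd4 shRNA, 229 and 147 with Mbd3 shRNA, and 199 and 150 with control shRNA. For Snord99 the day-4 knockdown arrays were thus the lowest of the 6, and for Snora44 the highest. Kansl2, a subunit gene of a histone acetyltransferase complex, holds Snora34 (-1.34) and Snora2b (0.14) and itself differed by 0.11. Snora34 had 131 at day 4 and 531 at day 0 with Chd4 shRNA, 182 and 302 with Mbd3 shRNA, and 331 and 291 with control shRNA. Snora2b lay between 102 and 133 on all 6 arrays. Ncl, the gene of the nucleolar protein nucleolin, holds Snora75 (-1.11) and Snord82 (-0.27) and itself differed by 0.13. The snoRNAs of Nop58, Snord11 (-0.79) and Snord70 (-0.78), stood close together. A gap between the members of a host was not confined to 1 class, since Snora16a and Snora44 are both of box H/ACA.

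**Figure D4:**
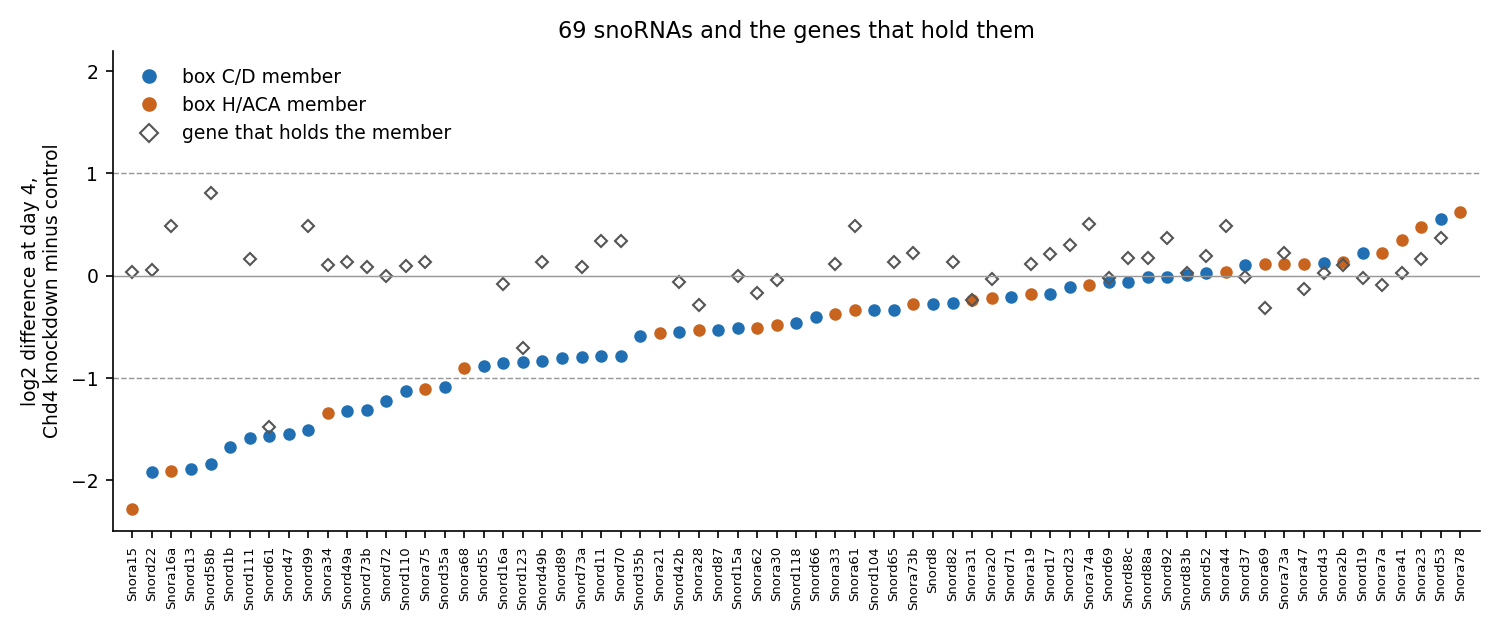
Log2 difference of the Chd4 knockdown minus control at day 4 (vertical axis) for 69 snoRNAs ordered from lowest to highest along the horizontal axis; filled points are snoRNAs by class, open diamonds are the measured single genes that hold them, and dashed lines mark 2-fold. The snoRNAs run from -2.28 to 0.62 while the hosts, apart from Rbmx at -1.48, stay within 2-fold.

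Many snoRNA hosts in vertebrates are genes whose transcripts begin with a C in a run of pyrimidines, the terminal oligopyrimidine tract of ribosomal protein genes. The starts of 6 hosts are shown because they separate hosts with and without such a run among those holding snoRNAs at least 2-fold lower in the Chd4 knockdown at day 4. The windows are RefSeq's of GRCm38.p6, from 70 bases before to 30 after the annotated start, 5′ to 3′ on the strand of the gene. Capitals mark a run of at least 6 pyrimidines (C or T), counted from a C within 5 bases of the start, on the strand of the gene alone. A T directly before that C was not counted, as in Snhg12 and 2410006H16Rik. With such a run are Snhg12 (chr4:132308608-132308707, plus strand), 2410006H16Rik (chr11:62602807-62602906, plus strand) and Rpl13a (chr7:45128716-45128815, minus strand). Without one are Snhg1 (chr19:8723417-8723516, plus strand), Kansl2 (chr15:98534240-98534339, minus strand) and Rbmx (chrX:57393007-57393106, minus strand).

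Snhg12: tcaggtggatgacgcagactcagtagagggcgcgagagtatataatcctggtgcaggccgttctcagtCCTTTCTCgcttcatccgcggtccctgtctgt
2410006H16Rik: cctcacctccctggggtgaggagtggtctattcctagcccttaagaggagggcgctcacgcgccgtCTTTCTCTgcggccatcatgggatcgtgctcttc
Rpl13a: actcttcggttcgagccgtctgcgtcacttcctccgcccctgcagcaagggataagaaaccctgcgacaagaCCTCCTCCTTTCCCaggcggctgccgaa
Snhg1: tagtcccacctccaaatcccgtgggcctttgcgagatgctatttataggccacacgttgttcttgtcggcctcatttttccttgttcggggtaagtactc
Kansl2: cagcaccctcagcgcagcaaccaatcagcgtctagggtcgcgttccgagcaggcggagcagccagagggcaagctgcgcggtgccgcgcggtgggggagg
Rbmx: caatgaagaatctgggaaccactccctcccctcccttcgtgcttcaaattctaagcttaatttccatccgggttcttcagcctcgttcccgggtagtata

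Such a run stood in 12 of 48 windows of genes that hold a member (25%) and in 4 of 14 windows of genes that hold a member at least 2-fold lower in the Chd4 knockdown at day 4 (28.6%), against 3229 of 27025 windows of all genes (11.9%). By this rule, hosts of low snoRNAs occurred with and without the run. Snhg12 and Rpl13a carry it, while Snhg1 with Snord22 and Kansl2 with Snora34 do not in these letters. The split depends on the rule and on the annotated start. The ribosomal protein genes Rpl37 and Rps3a1, which hold Snord72 and Snord73b, also lack the run by this rule. The Snhg1 window has a pyrimidine stretch after the start that begins with T and was not counted.

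Genes of snoRNA biogenesis were followed as lists. Of the box C/D core protein genes, Nop56, Nop58 and Snu13 were measured, and in the Chd4 knockdown against control at day 4 their median was 0.19 with all 3 higher. The 4 box H/ACA core genes had a median of 0.39, all higher, from 0.07 for Gar1 to 0.59 for Nhp2. Of 12 assembly factor genes 8 were higher (median 0.20), of 10 genes of intron release and trimming 6 (0.01), and of 13 genes of RNA polymerase I and rRNA transcription 11 (0.15). Of all genes 46.1% were higher in that comparison, so that 6 of 10 is near the background. None of these genes was past 2-fold there, and the median of all genes was -0.04. The lowest was Parn, of the trimming list, at -0.62, and it differed by -0.52 in the Mbd3 knockdown at day 4. In the Chd4 knockdown against control at day 0 Parn differed by -1.08, the only gene of these lists past 2-fold. Of all genes 0.565% were 2-fold lower there. Its part in the snoRNA differences was not tested. The same lists had medians of -0.38, -0.41, -0.40, -0.16 and -0.39 in control cells at day 4 against day 0, where the snoRNA medians were near 0, and of 0.05, 0.15, -0.01, -0.02 and 0.09 in the Chd4 knockdown at day 4 against day 0, where they were -0.72 and -0.34.

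Markers of the cell types also differed between the arrays. The summed intensity of 8 stem cell markers was 5531 at day 4 and 8407 at day 0 with Chd4 shRNA, 5514 and 8317 with Mbd3 shRNA, and 2944 and 8377 with control shRNA. The sum of 8 neural progenitor markers was 698 at day 4 and 356 at day 0 with Chd4 shRNA, 1018 and 375 with Mbd3 shRNA, and 4806 and 442 with control shRNA. Against control at day 4, the Chd4 knockdown had 7 of 8 stem cell markers higher (3 past 2-fold), and all 8 neural progenitor and all 4 neuron markers lower (7 and 4 past 2-fold), where 46.1% of all genes were higher and 53.9% lower, and 5.07% and 6.65% past 2-fold. Their part in the snoRNA differences was not tested. In bulk RNA, fewer cells of a type and less RNA per cell cannot be told apart.

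Other small noncoding RNAs were set beside the snoRNAs, since they share a short length and the column on which the RNA was extracted. Rny1, a Y RNA of 111 bases that binds the Ro protein, had intensities of 311 at day 4 and 642 at day 0 with Chd4 shRNA, 744 and 413 with Mbd3 shRNA, and 1357 and 545 with control shRNA. Rny3, of 101 bases, had 39.04 at day 4 and 132 at day 0 with Chd4 shRNA, 50.4 and 67.4 with Mbd3 shRNA, and 168 and 65.8 with control shRNA. The Chd4 difference from control at day 4 was -2.12 for Rny1 and at least 2.02 lower on the log2 scale for Rny3, where the floor of 41.4 stands for the Chd4 array. Of the small Cajal body RNAs, relatives of snoRNAs that guide changes in spliceosomal RNAs, Scarna10, of 71 bases, had 140 at day 4 and 366 at day 0 with Chd4 shRNA, 289 and 432 with Mbd3 shRNA, and 618 and 331 with control shRNA, a difference of -2.15 at day 4. Scarna6, of 248 bases, differed by -0.78. Scarna2 and Scarna17, with entries of 61 and 62 bases, differed by -0.11 and 0.26. The lengths of these RNAs are those of their RefSeq entries, and whether an entry covers the full RNA was not checked.

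Rn7sk, Rpph1 and Terc are longer RNAs. Rn7sk (332 bases), which restrains transcription elongation, had 6910 at day 4 and 7231 at day 0 with Chd4 shRNA, 6723 and 7179 with Mbd3 shRNA, and 7134 and 7317 with control shRNA. Rpph1 (325 bases), the RNA of RNase P, had 2579 at day 4 and 3903 at day 0 with Chd4 shRNA, 2622 and 2755 with Mbd3 shRNA, and 2595 and 2042 with control shRNA. For Rpph1 the Chd4 knockdown differed from control by -0.01 at day 4 and 0.93 at day 0, and its day 4 from its day 0 by -0.60. Terc (397 bases), the telomerase RNA, had 345 at day 4 and 468 at day 0 with Chd4 shRNA, 442 and 564 with Mbd3 shRNA, and 318 and 538 with control shRNA, and the Chd4 knockdown differed from control by 0.12 at day 4. Rn7sk was thus nearly level over the arrays, at intensities near the highest of any probe set, 7980. Whether this limits its differences was not tested. Rpph1 was highest in the Chd4 knockdown at day 0, and Terc was lowest in control at day 4. Within the snoRNAs, the length of the RefSeq entry was set against the Chd4 difference from control at day 4. It had r = 0.02 over 44 box C/D members and r = 0.20 over 25 box H/ACA members, descriptions across RNAs of the same 2 arrays. Of 167 genes with a symbol starting with Mir, 115 were higher in that comparison, with a median of 0.15, where 46.1% of all genes were higher. At least 2-fold higher were 16 and at least 2-fold lower 5, where 5.07% and 6.65% of all genes were. Whether their probe sets read the mature RNA or a longer precursor was not checked. How fully the column held back RNAs of this length was not measured, and its part in the differences was not tested.

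**Figure D5:**
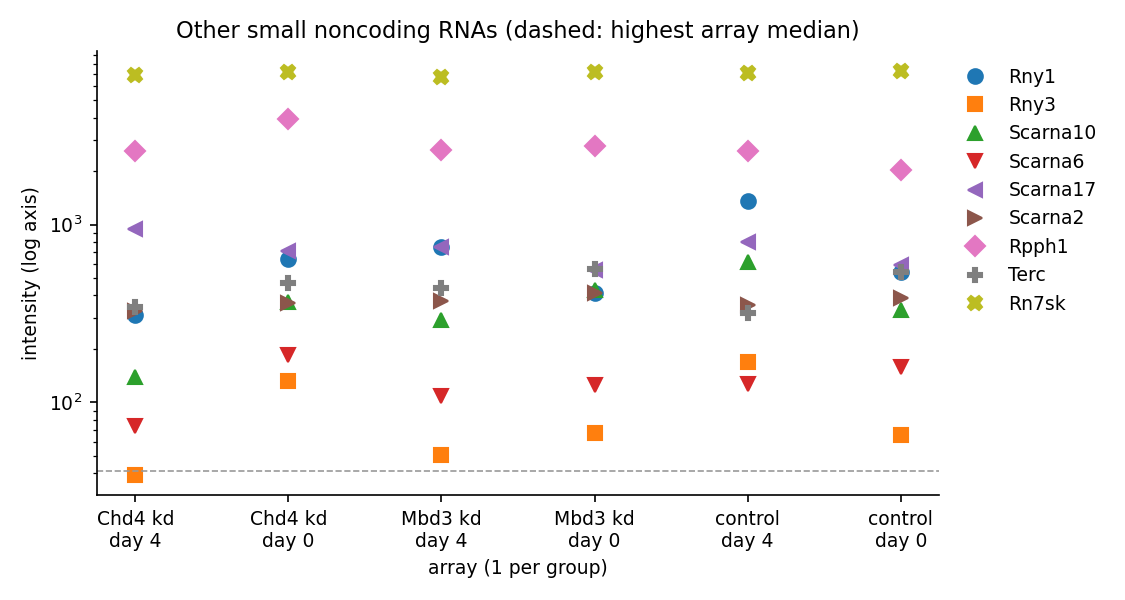
Intensity (log axis) of small noncoding RNAs that are no Snord or Snora gene, by array (1 per group); the dashed line is the highest array median, 41.4. Rny1, Rny3 and Scarna10 are lowest in the Chd4 knockdown at day 4. Rn7sk lies between 6723 and 7317 on all 6 arrays, near the highest value of any probe set, 7980.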

How the data were processed

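Total RNA, extracted on columns per the labels' protocols, was hybridised to Mouse Gene 2.0 ST arrays, 1 per group. Linear intensities were deposited, made by the authors in GeneSpring GX 12.6.1 per the series design text and with RMA per the submitters' processing notes. The sources used here name no build for the probes.

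Log2 was taken with no further scaling. Probe sets were named from the platform annotation where it gave 1 symbol (23521 of 34351), updated through RefSeq of GRCm38.p6. All 73 snoRNAs had an entry; 67 passed the intensity filter in all 7 comparisons, Snora35, Snord85 and Snord90 in none, and Snora19, Snord123 and Snord91a in some. In each comparison the 5 highest and 5 lowest members of each class were named, with those of textbook interest and those inside Gas5, Snhg1, Rpl13a and Rpl7a. Hosts were to lie on the same strand, but the tables used give none for the snoRNAs. The members and lists were chosen with earlier results of these data known. Planted shifts were recovered in a check on simulated data. Groups came from the labels. The labels do not say whether a sample was 1 culture. Python 3.11.15, numpy 2.4.6 and pandas 2.3.3 were used. Alternatives were another fold threshold, a constant subtracted, no intensity filter, a floor, equal medians, the mean of a gene's probe sets and probe sets with several symbols.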

Additional observations from a re-analysis of the deposited data

Results flagged for a closer look

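The box C/D median of the Chd4 knockdown against control was -0.57 at day 4 and 0.20 at day 0, on opposite sides of 0. With 1 array per group this difference between the days was not tested. For Snord13 the same comparison gave -1.89 at day 4 and 1.43 at day 0. That difference was not tested either.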

How the results depend on the processing

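The class medians were recomputed under 6 alternatives, 84 values in all: 79 stayed within 0.1 of the value given, and 5 moved, of which 1 changed sign. With 16 subtracted from each intensity, a constant that the lowest values leave room for, the box C/D median of the Chd4 knockdown against control at day 4 was -0.68, and with probe sets of several symbols added, an alternative chosen after seeing the data, it was -0.46. The box C/D median of day 4 against day 0 in the Chd4 knockdown was -0.57 without the intensity filter and -0.53 with several symbols, and the box H/ACA median of the days in control was -0.062 with several symbols, against 0.052. Of 98 counts past the threshold, 83 stayed within 1.5 times. With 16 subtracted, 5 box C/D members were past 2-fold in the Mbd3 knockdown at day 4 and 2 in control between days, and with several symbols 1 in the Mbd3 knockdown at day 0. At a 1.5-fold threshold the box C/D counts were 22 and 3 for the Chd4 knockdown at day 4 and day 0, 12 and 1 for the Mbd3 knockdown, and 6 and 8 between days in control and in the Mbd3 knockdown. The box H/ACA counts were 2 for the Chd4 knockdown and 1 for the Mbd3 knockdown at day 0, 7 for the Mbd3 knockdown at day 4, and 3, 8 and 4 between days in control, the Chd4 and the Mbd3 knockdown. Of all genes, 26.6% and 7.59% were past 1.5-fold for the Chd4 knockdown at day 4 and day 0, 21.2% and 4.997% for the Mbd3 knockdown, and 28.5%, 10.5% and 10.5% between days in control, the Chd4 and the Mbd3 knockdown. A lower threshold passes more members by construction; for the other shifts the cause was not tested. No paired analysis was possible because the groups share no more than 1 replicate number; each comparison of days lies within 1 line. Leaving out an array would leave its group empty.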

Other observations

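A further 43 probe sets carried several symbols that include a Snord or Snora gene, with 26 distinct sets of symbols, and 16 of them shared 1 set. Their genes are not named. Taking the brightest probe set of each set of symbols gave 17 box C/D and 7 box H/ACA entries that could be compared between the Chd4 knockdown and control at day 4, with medians of -0.09 and -0.08. Of the box C/D entries 3 were at least 2-fold lower and 1 at least 2-fold higher, where 6.65% and 5.07% of all genes were. The 1 higher entry of 17 is near the background. The 16 probe sets that shared 1 set of symbols had a median difference of 1.33 there and of -1.02 in the Mbd3 knockdown against control at day 0.

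Snora33 had a second, dimmer probe set. In the Chd4 knockdown against control at day 4 it differed by 0.16, while the brighter one, which stands for the gene above, differed by -0.37. The cause was not tested.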
